A study of Homo sapiens with 17 samples.

Results

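The 9 genes described here belong to the NRF2 antioxidant response and to iron storage: NFE2L2, HMOX1, NQO1, GCLM, GCLC, TXNRD1, SRXN1, FTL and FTH1. They were chosen by symbol, each matched exactly 1 of the 58870 entries of the deposited count table, and all 9 of 9 were among the 15365 genes with enough counts to be tested. The cells were MDA-MB-231, a long-established human line of triple-negative breast cancer, which lacks the oestrogen and progesterone receptors and HER2 amplification, and they are labelled as mesenchymal and basal B. They received 45 nM TRAIL, a TNF-family ligand whose death receptors can trigger apoptosis, and RNA was sequenced at 0, 1, 3, 6, 12 and 24 h. The dose was described as below the optimum, so that living cells would be measured, and the series asks how transcript levels change in them. There were 17 libraries, 3 at each time but 2 at 1 h. Every library, those at 0 h included, is labelled TRAIL treated, and all came from 1 line grown in the same medium with 10% serum. No later library was labelled as untreated, so time with TRAIL and time in culture cannot be told apart. The labels do not say whether the libraries of a time came from separate cultures, so the p-values measure the spread between these libraries, which may be technical.

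NRF2, the product of NFE2L2, is a transcription factor that KEAP1 holds at a low level by directing it to degradation. Electrophiles and oxidants disable KEAP1, and NRF2 then pairs with small MAF proteins on antioxidant response elements, where BACH1 can compete with it. Its known targets make glutathione, regenerate thioredoxin and peroxiredoxins, reduce quinones, break down haem and store iron in ferritin. Because much of this control acts on the NRF2 protein, the transcript of NFE2L2 need not follow NRF2 activity. Ferritin is also set by iron itself: iron regulatory proteins bind a hairpin, the iron-responsive element, and block translation of ferritin when it lies in the leader, or protect the transferrin receptor transcript from decay when it lies behind the coding region.

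The iron-responsive elements are shown because they link the ferritin genes to the transferrin receptor gene TFRC, whose level is described with theirs. Whether the other members hold a match is not reported here. A search of the longest GENCODE 29 transcript of each gene, on the strand of the transcript, looked for the loop CAGTGN with a C before the upper stem and with 5 bases on each side of the loop able to pair, G with U included. The elements of FTL (chr19:48965336-48965362, plus strand), FTH1 (chr11:61967575-61967601, minus strand) and the first of TFRC (chr3:196050980-196051006, minus strand) are given 5′ to 3′ on GRCh38 as DNA letters, with the loop in capitals.
FTL: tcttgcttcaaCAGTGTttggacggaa
FTH1: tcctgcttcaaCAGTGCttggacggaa
TFRC: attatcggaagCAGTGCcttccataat
Both ferritin elements lie in the 5′ untranslated region and share 25 of 27 bases. The TFRC transcript held 4 matches, all in the 3′ untranslated region. A match within the first 100 bases was found in 10 of 19702 protein-coding genes (0.051%), a match anywhere in 260 genes (1.32%), and 4 or more matches in 1 gene, TFRC.

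The core of the antioxidant response element, TGACNNNGC, was searched on both strands of the RefSeq promoter windows (GRCh38.p14, 250 bases before to 50 after a start), because it is the sequence through which NRF2 is known to act. Windows were matched for 7 members, with 9 windows in all, and HMOX1 and FTH1 had no entry. The core was present in 3 of these 9 windows and in 4687 of all 35116 windows (13.35%). The stretches upstream of the start are given on the strand of the gene with the core in capitals, from GCLM (chr1:93909440-93909480, minus strand) and from separate start sites of TXNRD1 (chr12:104215664-104215704 and chr12:104286914-104286954, plus strand). In GCLM and at the second TXNRD1 start the core reads on the opposite strand.
GCLM: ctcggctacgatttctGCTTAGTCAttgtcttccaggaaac
TXNRD1 first start: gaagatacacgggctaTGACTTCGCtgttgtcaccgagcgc
TXNRD1 second start: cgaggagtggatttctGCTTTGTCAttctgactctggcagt
The core lay 34 to 26 bases upstream of the GCLM start, and 99 to 91 and 102 to 94 bases upstream of the TXNRD1 starts. A match is a description of the letters and not a site of binding. Bases farther than 250 upstream of a start were not searched. A window without the core therefore does not show that a gene lacks the element.

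Total counts per library lay between 13731520 and 19234924. The mesenchymal markers fixed for the label were high in every library (VIM 2650 to 3492, CD44 1151 to 1563 and CAV1 712 to 983 CPM). CPM are counts scaled to a common library size. For the ranges and highest values of the markers in this paragraph, the total count of each library alone was used. Other CPM, the 0 h mean of PECAM1 included, were also scaled by the TMM method. ESR1, PGR and FOXA1 had at most 2 counts, and CDH1 stayed at or below 1.00 CPM, while ERBB2 lay between 54.2 and 75.0 CPM. The other luminal markers of the list were detected in every library, EPCAM at 12.95 to 19.92 CPM and GATA3 at 6.99 to 12.23 CPM. Of 4 markers of blood and vessel cells, CD3E was at 0, PTPRC had at most 5 counts and PECAM1 at most 4.12 CPM, whereas CD68 reached 102 CPM. Markers of all 3 kinds moved with time. Of 5 mesenchymal markers, 3 were called higher and 0 lower at 6 h (16.9% and 13.2% of all genes). By 24 h, 2 were higher and 1 lower (18.0% and 17.1%). Of 4 luminal markers tested, 0 were called higher and 1 lower at 6 h, and 0 in either direction at 24 h. CD68 changed by -0.43 (adjusted p = 7.35e-05) at 3 h and by 0.23 (adjusted p = 0.0058) at 24 h. PECAM1, at a mean of 1.43 CPM at 0 h, changed by 1.17 (adjusted p = 0.00258) at 24 h. The part of these markers in the results was not tested. Long transcripts took a different share of the counts in different libraries, and this share moved with time. The slope of the log2 level on log2 transcript length, each library taken against the average library, ran from -0.064 to -0.010 at 0 h, from -0.136 to -0.061 at 3 h, from 0.011 to 0.095 at 6 h, from -0.027 to 0.076 at 12 h and from 0.022 to 0.134 at 24 h. The mitochondrial share of counts moved the opposite way to this slope at 3 h and 24 h, with means of 6.75% at 0 h, 8.58% by 3 h and 3.90% by 24 h. The longest transcripts of FTL (878 bases) and FTH1 (1229 bases) are the shortest of the members. Those of GCLM (4857 bases) and TXNRD1 (4277 bases) are the longest. Values corrected for length and GC content are therefore given beside many results, and results printed without them may also move. The offsets of this correction were fitted to the same counts. It could therefore also remove a real change with time that goes with length or GC content, which was not tested. Replicates 2 and 3 at 6 h and at 24 h were closer to each other than any other pair of replicates (chi-square per gene of 1.52 and 1.69, against 4.09 to 16.1), and calls of the members that are lost with each pair averaged are named.

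Across all times together, 8 of the 9 genes were called at an adjusted p below 0.05, where 64.2% of all genes tested were called. HMOX1 was the exception (adjusted p = 0.932). None of the changes was large: without the correction, the largest difference between any pair of times compared was 0.52 on the log2 scale (GCLM, 6 h against 3 h, 0.30 with the correction), and 0 genes changed by 2-fold or more. The genes did not move as a block. GCLM, TXNRD1, SRXN1 and NFE2L2 rose at 6 h while FTL, FTH1 and NQO1 fell, and HMOX1 stayed between 14.0 and 17.7 CPM throughout. The 6 h calls of GCLM and FTL were lost with the correction, and those of GCLM, FTL and NQO1 with the close replicates averaged.

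Per kilobase of the longest transcript, FTL was the most abundant member at 0 h (2899 CPM per kb), followed by FTH1 (1098), TXNRD1 (148), NQO1 (109), SRXN1 (44.7), NFE2L2 (38.0), GCLM (12.3), HMOX1 (9.07) and GCLC (7.51). The libraries of neighbours in this order did not overlap at 0 h. At 24 h the level of SRXN1 (45.3 CPM per kb) and that of NFE2L2 (44.4 CPM per kb) lay within the spread between their libraries. Together the 9 genes held 0.517% ± 0.00874 (SD, n = 3) of all counts at 0 h and 0.455% ± 0.0211 (SD, n = 3) at 24 h, most of it ferritin.

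**Figure D1:**
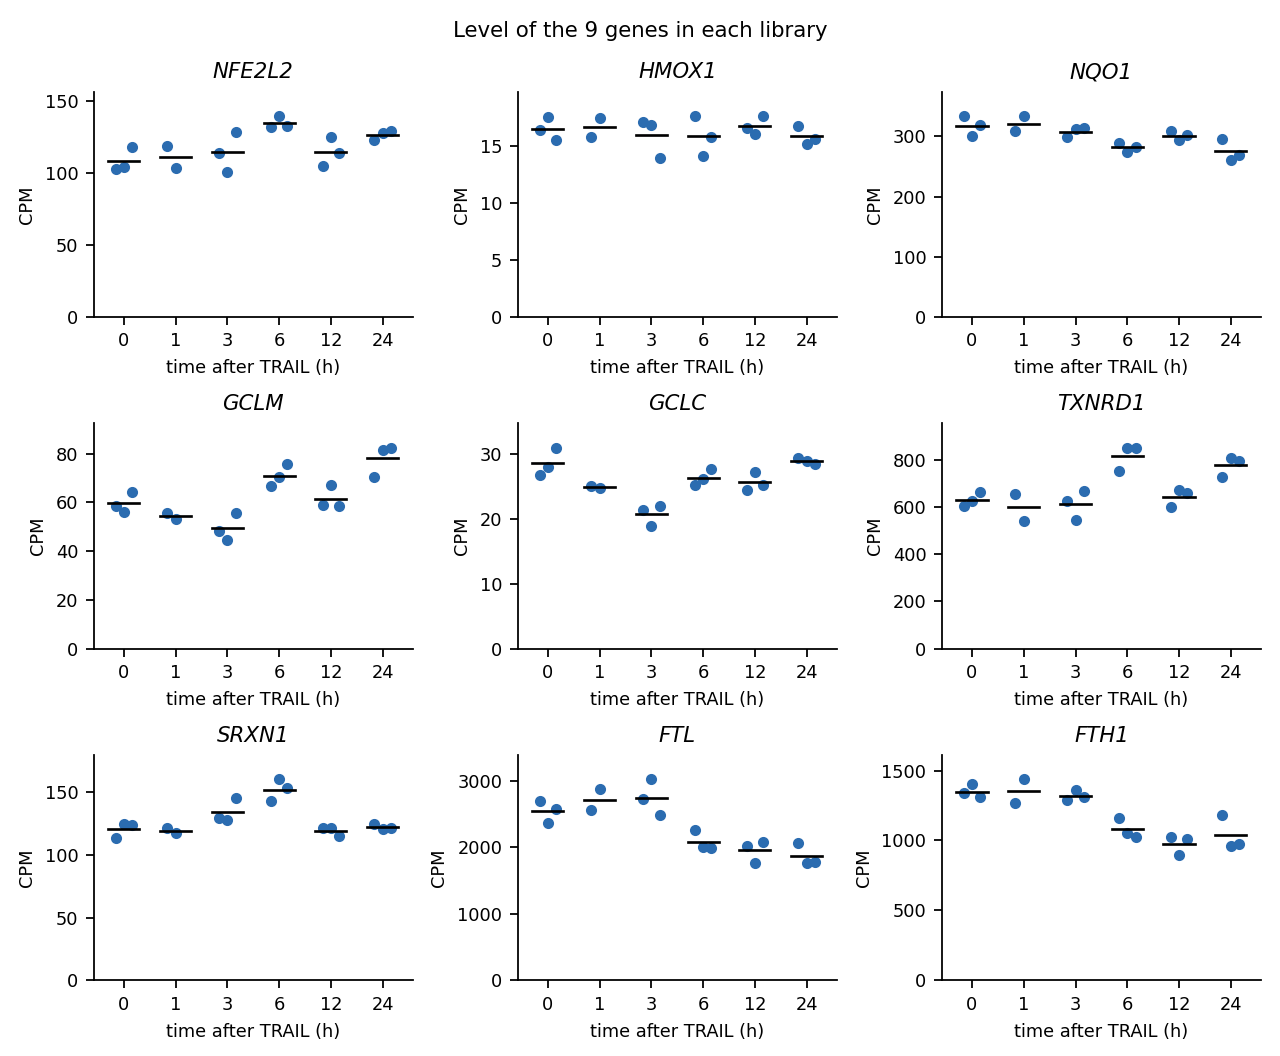
Level of each of the 9 genes in CPM (vertical axes, from 0) by time after TRAIL in hours (horizontal axes, not to scale); points are libraries in the order of their replicate number and bars are means of 3 libraries, or of 2 at 1 h. TXNRD1, GCLM and SRXN1 stand above their 0 h points at 6 h, FTL and FTH1 stand below theirs from 6 h on, and HMOX1 is level.

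NFE2L2, the regulator itself, rose at 6 h. Its libraries had 103, 104 and 118 CPM at 0 h, then 119 and 103 CPM with 1 h of TRAIL and 114, 101 and 129 CPM with 3 h. At 6 h they had 132, 140 and 133 CPM. The level was then 105, 125 and 114 CPM at 12 h and 123, 128 and 129 CPM at 24 h. All 6 h and all 24 h libraries lay above all 0 h libraries, and the libraries of the other times overlapped with those at 0 h. On the log2 scale NFE2L2 changed by 0.32 (SE 0.082, adjusted p = 0.00764) at 6 h and 0.23 (SE 0.083, adjusted p = 0.0397) at 24 h. The later call was lost when 0 h replicate 1 or 2 or 24 h replicate 2 or 3 was left out (0.19 to 0.22, adjusted p between 0.1 and 0.15), and with the close replicates averaged (0.21, adjusted p = 0.129). The gene overlaps AGPS and several antisense entries on the opposite strand, and its counts were not whole in 16 of 17 libraries, which arises where fragments are divided between entries.

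GCLM and GCLC encode the modifier and the catalytic subunit of glutamate-cysteine ligase, which makes the first and limiting step of glutathione synthesis. Both fell at 3 h, and GCLM then rose above its starting level. GCLM had 58.4, 56.1 and 64.4 CPM at 0 h, then 55.8 and 53.2 CPM with 1 h of TRAIL and 48.3, 44.7 and 55.5 CPM with 3 h. Afterwards the values were 66.8, 70.4 and 76.0 CPM by 6 h, 59.0, 67.2 and 58.4 CPM by 12 h and 70.3, 81.6 and 82.5 CPM by 24 h. The 3 h libraries were all lower, and those at 6 h and 24 h all higher, than every 0 h library. GCLM changed by -0.27 (SE 0.088, adjusted p = 0.0404) at 3 h, 0.25 (SE 0.085, adjusted p = 0.0305) at 6 h and 0.39 (SE 0.085, adjusted p = 0.00191) at 24 h.

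The first pair of these GCLM calls was fragile. The 3 h call was lost without any 1 of 5 libraries, namely 0 h replicates 1, 2 and 3 and 3 h replicates 1 and 2 (-0.31 to -0.20, adjusted p between 0.0517 and 0.19), and was kept with the length and GC correction (-0.18, adjusted p = 0.011). The 6 h call of GCLM was lost with that correction (0.12, adjusted p = 0.0675), with the close replicates averaged (0.22, adjusted p = 0.122), and without 0 h replicate 1 or 2 or 6 h replicate 2 or 3 (0.20 to 0.26, adjusted p between 0.0692 and 0.148). The 24 h call was kept under every alternative run, at 0.24 (adjusted p = 0.000557) with the correction.

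GCLC was called against 0 h at 3 h alone, as lower. Its libraries had 26.8, 28.1 and 31.1 CPM at 0 h, then 25.1 and 24.8 CPM with 1 h of TRAIL and 21.4, 19.0 and 22.1 CPM with 3 h. In the later libraries the level was 25.3, 26.1 and 27.8 CPM by 6 h, 24.5, 27.3 and 25.2 CPM by 12 h and 29.4, 28.9 and 28.6 CPM by 24 h. Every library at 1 h and 3 h lay below every library at 0 h, and by 24 h the level was within the 0 h range. A log2 fold change of -0.46 (SE 0.080, 95% interval -0.63 to -0.29, adjusted p = 0.000597) was found at 3 h, and it was called under every alternative run. At 1 h the value was -0.20 (adjusted p = 0.934). The correction for length and GC content gave calls for GCLC at 6 h (-0.16, adjusted p = 0.0495) and 12 h (-0.23, adjusted p = 0.0138) that the uncorrected fit did not (-0.11, adjusted p = 0.268, and -0.15, adjusted p = 0.194).

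In proportion to each other, GCLM counts per GCLC count were 2.00 to 2.18 at 0 h, 2.15 to 2.22 at 1 h, 2.26 to 2.51 at 3 h, 2.64 to 2.73 at 6 h, 2.32 to 2.46 at 12 h and 2.39 to 2.89 at 24 h. From 3 h on, every library had a higher ratio than every 0 h library. The GCLM transcript is the longer one, and the ratio was not corrected for length.

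TXNRD1, the cytosolic thioredoxin reductase, and SRXN1, the sulfiredoxin that restores overoxidised peroxiredoxins, both rose at 6 h. TXNRD1 had 605, 626 and 664 CPM at 0 h, then 657 and 542 CPM with 1 h of TRAIL and 625, 548 and 668 CPM with 3 h. From then on it was 755, 853 and 850 CPM by 6 h, 599, 675 and 659 CPM by 12 h and 728, 809 and 798 CPM by 24 h. Its level was therefore high at 6 h and 24 h, with no overlap with 0 h, and it overlapped with 0 h at 12 h. The log2 fold change of TXNRD1 was 0.38 (SE 0.082, adjusted p = 0.00222) at 6 h and 0.30 (SE 0.082, adjusted p = 0.00776) at 24 h. Both calls were kept under every alternative run, and the 24 h value was 0.19 (adjusted p = 0.015) with the length and GC correction.

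SRXN1 formed a single peak. Its libraries had 113, 125 and 124 CPM at 0 h, then 121 and 117 CPM with 1 h of TRAIL and 129, 127 and 145 CPM with 3 h. The later libraries reached 143, 160 and 153 CPM by 6 h, 121, 121 and 115 CPM by 12 h and 124, 121 and 121 CPM by 24 h. The 3 h and 6 h libraries all lay above those at 0 h, and the 12 h and 24 h libraries were inside the 0 h range. On the log2 scale SRXN1 changed by 0.33 (SE 0.061, adjusted p = 0.000586) at 6 h, called under every alternative run, and 0.15 (SE 0.061, adjusted p = 0.0973) at 3 h.

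NQO1, a quinone reductase often used as a readout of NRF2, did not share this rise. Its libraries had 334, 301 and 318 CPM at 0 h, then 309 and 334 CPM with 1 h of TRAIL and 298, 312 and 314 CPM with 3 h. Afterwards the values were 289, 274 and 283 CPM by 6 h, 309, 294 and 302 CPM by 12 h and 296, 261 and 270 CPM by 24 h. All libraries at 6 h and 24 h lay below all at 0 h. On the log2 scale NQO1 changed by -0.17 (SE 0.058, adjusted p = 0.0295) at 6 h and -0.21 (SE 0.058, adjusted p = 0.0093) at 24 h. The 6 h call was lost without 0 h replicate 1 or 3 or 6 h replicate 2 or 3 (-0.17 to -0.14, adjusted p between 0.0605 and 0.14), without a filter on low counts (-0.17, adjusted p = 0.0718) and with the close replicates averaged (-0.18, adjusted p = 0.0807). The 24 h call of NQO1 was lost with library size alone as the scaling (-0.13, adjusted p = 0.0514), without 0 h replicate 1 or 24 h replicate 2 (-0.17, adjusted p = 0.0567 and 0.06) and with the averaged replicates (-0.19, adjusted p = 0.0506).

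HMOX1, the inducible haem oxygenase that releases iron from haem, gave no call at any time. It had 16.4, 17.6 and 15.6 CPM at 0 h, 17.7, 14.2 and 15.9 CPM by 6 h and 16.8, 15.2 and 15.6 CPM by 24 h, from 195 to 321 counts per library. The groups overlapped at every time. At 6 h the log2 fold change was -0.05 (95% interval -0.25 to 0.15) and at 24 h -0.06 (95% interval -0.26 to 0.15), and its sign turned with the length and GC correction (0.08 and 0.10). These intervals leave room for small changes of either sign but lie well inside a 2-fold change.

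The ferritin genes were lower than at 0 h from 6 h on. FTL, the light chain, had 2700, 2361 and 2575 CPM at 0 h, then 2558 and 2867 CPM with 1 h of TRAIL and 2718, 3018 and 2481 CPM with 3 h. In the later libraries the level was 2256, 1996 and 1984 CPM by 6 h, 2022, 1756 and 2083 CPM by 12 h and 2065, 1760 and 1779 CPM by 24 h. FTH1, the heavy chain with the ferroxidase activity, had 1339, 1402 and 1308 CPM at 0 h, then 1266 and 1437 CPM with 1 h of TRAIL and 1292, 1363 and 1308 CPM with 3 h. From then on it was 1164, 1050 and 1023 CPM by 6 h, 1023, 896 and 1014 CPM by 12 h and 1179, 958 and 971 CPM by 24 h. For both genes every library from 6 h on lay below every 0 h library, and the earlier times overlapped with 0 h. Ferritin thus took 0.389% ± 0.00808 (SD, n = 3) of all counts at 0 h and 0.299% ± 0.0214 (SD, n = 3) at 12 h. Since these are bulk libraries, a lower level in every cell and fewer cells with a high level cannot be told apart.

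The log2 fold change of FTL was -0.29 (SE 0.088, adjusted p = 0.0176) at 6 h, -0.38 (SE 0.088, adjusted p = 0.00842) at 12 h and -0.45 (SE 0.088, adjusted p = 0.000919) at 24 h. For FTH1 it was -0.32 (SE 0.079, adjusted p = 0.0053) at 6 h, -0.47 (SE 0.079, adjusted p = 0.000892) at 12 h and -0.38 (SE 0.079, adjusted p = 0.00131) at 24 h. The correction for length and GC content made these falls smaller. FTL changed to -0.11 (adjusted p = 0.0902) at 6 h, -0.28 (adjusted p = 0.000297) at 12 h and -0.21 (adjusted p = 0.0015) at 24 h. FTH1 changed to -0.18 (adjusted p = 0.00578), -0.43 (adjusted p = 1.43e-06) and -0.24 (adjusted p = 0.000381), and the correction also called it at 3 h (-0.14, adjusted p = 0.0303, against -0.03 without it).

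Leaving out single libraries ended no call of FTH1 against 0 h. The 6 h call of FTL was lost without 0 h replicate 1 or 6 h replicate 2 or 3 (-0.26 to -0.25, adjusted p between 0.0759 and 0.0867) and with the close replicates averaged (-0.27, adjusted p = 0.0761), and its 12 h call without 12 h replicate 2 (-0.31, adjusted p = 0.062). FTL counts per FTH1 count were 1.68 to 2.02 at 0 h and 1.75 to 1.84 at 24 h, and the ranges overlapped. Ferritin has many processed pseudogenes, whose reads can be confused with the genes. The 25 entries named FTH1P with a number held 0.188% to 0.34% of the joint FTH1 counts per library, the 16 FTLP entries 0.0525% to 0.113% of those of FTL, and adding them changed no call. FTL and FTH1 counts were nevertheless not whole in all 17 libraries, and FTH1 overlaps BEST1 on the opposite strand.

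**Figure D2:**
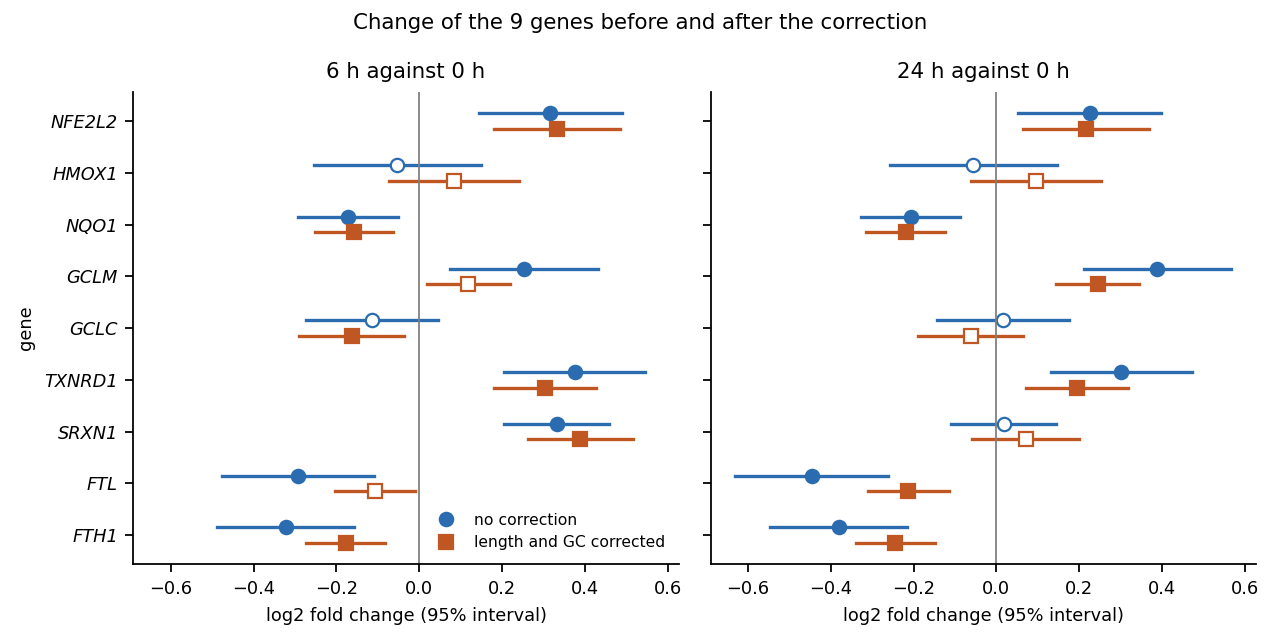
Log2 fold change of the 9 genes at 6 h and 24 h against 0 h with 95% intervals (horizontal axes), without correction (circles) and with the correction for transcript length and GC content (squares); filled symbols are called at an adjusted p below 0.05. The correction moves FTL, FTH1, GCLM and TXNRD1 toward 0, and at 24 h all 6 called genes stay called.

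The counts of members called against 0 h are set beside the share of all genes tested that were called in the same direction. At 1 h, edgeR called 0 members higher (0.260% of all genes) and 0 lower (0.0521%), with 0 and 1 member at an unadjusted p below 0.05, and DESeq2 and limma-voom called 0. At 3 h, 0 were called higher (9.04% of all genes; 1 member at an unadjusted p below 0.05, 0 by DESeq2 and limma-voom) and 2 lower (8.71%). At 6 h, 4 were called higher (16.9%) and 3 lower (13.2%). At 12 h, 0 were called higher (5.96%; 0 at an unadjusted p below 0.05, by DESeq2 and by limma-voom) and 2 lower (6.48%). At 24 h, 3 were called higher (18.0%) and 3 lower (17.1%). The median log2 fold change of the members was -0.05 at 6 h and 0.02 at 24 h, beside -0.022 and -0.0017 over all genes.

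Consecutive times were compared in the same way. From 1 h to 3 h, edgeR called 0 higher (3.17% of all genes) and 0 lower (2.56%), with 1 in each direction at an unadjusted p below 0.05 and 0 by DESeq2 and limma-voom. From 3 h to 6 h, 5 members rose (22.9% of all genes) and 2 fell (20.3%). GCLM rose by 0.52 (adjusted p = 0.000172), TXNRD1 by 0.42 (adjusted p = 0.000524), GCLC by 0.35 (adjusted p = 0.0019), NFE2L2 by 0.24 (adjusted p = 0.0255) and SRXN1 by 0.18 (adjusted p = 0.0197), the last with groups that overlapped. FTL changed by -0.40 (adjusted p = 0.00135) and FTH1 by -0.29 (adjusted p = 0.00581). With the length and GC correction GCLM rose by 0.30 (adjusted p = 8.72e-05), and the values of FTL and FTH1 were -0.08 (adjusted p = 0.199) and -0.04 (adjusted p = 0.53). The corrected fit called 0 members lower, where 20.5% of all genes were. The NFE2L2 and SRXN1 calls of this step were lost without 3 h replicate 1 or 2 or 6 h replicate 2 or 3 (NFE2L2 0.15 to 0.25, SRXN1 0.14 to 0.18) and with the close replicates averaged (0.22 and 0.15), and the SRXN1 call also with the libraries of the 2 times alone (0.17, adjusted p = 0.0596).

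From 6 h to 12 h, 0 members were called higher (8.70% of all genes; 0 at an unadjusted p below 0.05, by DESeq2 and by limma-voom) and 3 fell (11.9%). SRXN1 changed by -0.35 (adjusted p = 0.000471), TXNRD1 by -0.35 (adjusted p = 0.00545) and NFE2L2 by -0.23 (adjusted p = 0.0489), with no overlap between the groups. With the length and GC correction 6 members were called lower (15.9% of all genes), GCLM (-0.15), FTL (-0.17) and FTH1 (-0.25) in addition. The NFE2L2 call was lost without 6 h replicate 1, 2 or 3 or 12 h replicate 1 or 3 (-0.25 to -0.18, adjusted p between 0.063 and 0.182). It was also lost with RLE scaling (-0.23, adjusted p = 0.0502), library size alone (-0.20, adjusted p = 0.133), mitochondrial genes removed (-0.22, adjusted p = 0.0568) and the close replicates averaged (-0.22, adjusted p = 0.15). From 12 h to 24 h, GCLM rose by 0.34 (adjusted p = 0.0144) and TXNRD1 by 0.27 (adjusted p = 0.0353), 2 members where 6.42% of all genes were called higher, and 0 fell (5.60%; 1 member at an unadjusted p below 0.05, 0 by DESeq2 and limma-voom). Both calls of that last step were lost without 12 h replicate 1 or 3 or 24 h replicate 2 or 3 (GCLM 0.30 to 0.32, TXNRD1 0.23 to 0.29) and with the close replicates averaged (0.31 and 0.25). They were kept with the correction (0.27 and 0.24), which also called FTH1 higher from 12 h to 24 h (0.18, adjusted p = 0.00932, against 0.084 and 0.519 without it).

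Other genes of iron handling were taken from a list of 12, of which 5 were called higher and 1 lower at 6 h, where 16.9% and 13.2% of all genes were. At 3 h, 0 were called higher and 3 lower, beside 9.04% and 8.71% of all genes. At 12 h, 1 was called higher and 1 lower, beside 5.96% and 6.48%. By 24 h there were 4 called higher and 1 called lower, beside 18.0% and 17.1% of all genes. With the correction 4 were higher and 1 lower at 6 h, where 16.4% and 13.4% of all genes were. By 24 h the corrected fit gave 4 higher and 3 lower, beside 16.2% and 18.2% of all genes. With the close replicates averaged 3 were higher and 1 lower at both times. For this list and those below, the share of all genes called with that averaging is not reported here. Counts from the averaging are therefore not to be set against the shares of the other fits. TFRC, the transferrin receptor that brings iron into the cell, had 182, 224 and 231 CPM at 0 h, then 216 and 174 CPM with 1 h of TRAIL and 176, 149 and 207 CPM with 3 h. The later libraries reached 281, 374 and 358 CPM by 6 h, 203, 262 and 217 CPM by 12 h and 291, 354 and 346 CPM by 24 h. Like TXNRD1, it was high at 6 h and 24 h, without overlap with 0 h, and overlapped with 0 h at 12 h. The log2 fold change of TFRC was 0.67 (SE 0.15, adjusted p = 0.00488) at 6 h and 0.64 (SE 0.15, adjusted p = 0.00519) at 24 h, and 0.54 and 0.47 with the length and GC correction. SLC40A1, which encodes the iron exporter ferroportin, had a mean of 4.67 ± 0.473 CPM at 0 h, of 2.73 ± 0.573 CPM by 3 h, of 2.77 ± 0.518 CPM by 6 h and of 5.28 ± 0.578 CPM by 24 h (SD, n = 3 each). It fell by 0.78 (adjusted p = 0.00485) and 0.75 (adjusted p = 0.00291) on the log2 scale at 3 h and 6 h.

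IREB2, which encodes an iron regulatory protein, rose at 6 h by 0.49 (adjusted p = 0.00393), and by 0.31 with the length and GC correction. SLC39A14, a metal importer, rose at 24 h by 0.47 (adjusted p = 0.00259), or 0.36 with the correction. PCBP1, an iron chaperone, changed at 24 h by -0.29 (adjusted p = 0.000853), or -0.16 with the correction. The ferric reductase genes CYBRD1 at 3 h (-0.30, adjusted p = 0.0024) and STEAP3 at 12 h (-0.34, adjusted p = 0.014) fell, the latter call being lost without 0 h replicate 2 or 12 h replicate 2.

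**Figure D3:**
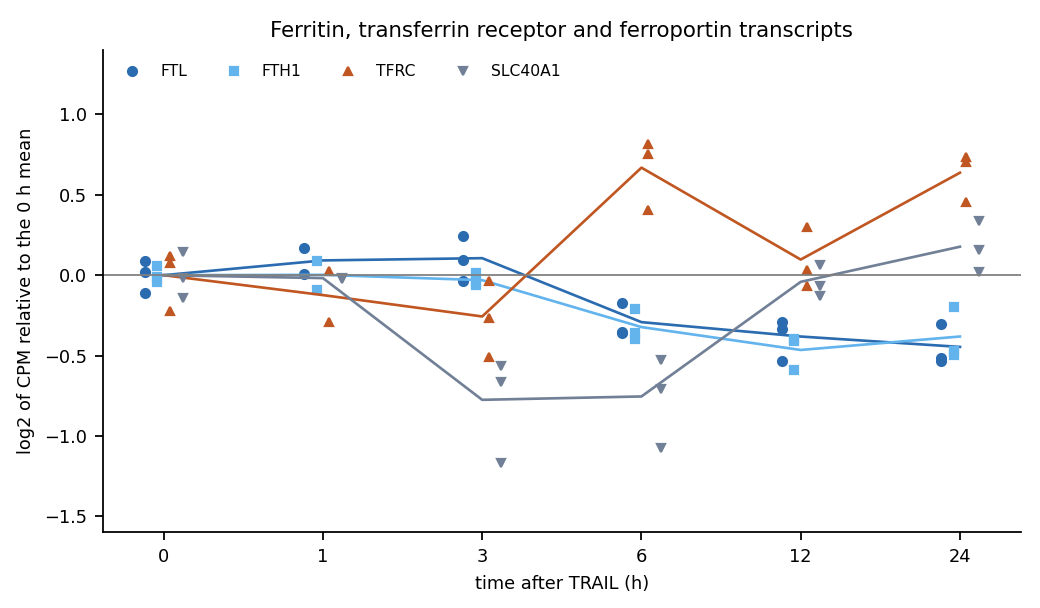
Log2 of the CPM of FTL, FTH1, TFRC and SLC40A1 in each library relative to the mean of the 0 h libraries of the gene (vertical axis), by time after TRAIL in hours (horizontal axis, not to scale); lines join the log2 of the group means. At 6 h and 24 h all TFRC points lie above 0 and all ferritin points below 0, and SLC40A1 is low at 3 h and 6 h.

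Among 9 genes that control NRF2, 4 were called higher and 1 lower at 3 h. The counts were 4 higher and 0 lower at 6 h, then 1 higher and 0 lower by 12 h, and 6 higher and 1 lower by 24 h. Of all genes, 9.04% were called higher and 8.71% lower at 3 h, 16.9% and 13.2% by 6 h, 5.96% and 6.48% by 12 h, and 18.0% and 17.1% by 24 h. With the correction the number called higher was 0 at 12 h and 4 at 24 h, beside 7.43% and 16.2% of all genes. With the close replicates averaged it was 3 at 6 h and 4 at 24 h. The small MAF genes, whose products pair with NRF2, moved early. MAFF had 29.6 ± 1.72 CPM at 0 h and reached 48.0 ± 1.47 CPM by 3 h (SD, n = 3), a log2 rise of 0.70 (adjusted p = 2.42e-06). MAFK rose by 0.44 (adjusted p = 0.0015) at 3 h, and at 6 h MAFG rose by 0.51 (adjusted p = 1.15e-05) and MAFF by 0.28 (adjusted p = 0.00941). NFE2L1, the relative of NFE2L2 that responds to proteasome loss, changed by -0.30 (adjusted p = 0.00293) at 3 h and by 0.32 (adjusted p = 0.000774) at 24 h. KEAP1 had 105 CPM at 0 h and 105 CPM at 6 h (log2 fold change -0.00063, adjusted p = 0.995). BACH1, the competitor, was called at 24 h (0.41, adjusted p = 0.0388) with groups that overlapped, and the call was lost with the length and GC correction (0.22, adjusted p = 0.076), with the close replicates averaged, and without 0 h replicate 1 or 2 or 24 h replicate 2 or 3. RBX1, a subunit of the ligase that marks NRF2 for degradation, changed by -0.32 (adjusted p = 0.00485) at 24 h. Its mean was 78.7 CPM at 0 h, higher at 3 h (98.2 CPM) and lower at 24 h (62.8 CPM).

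Of 16 further genes of the glutathione and thioredoxin systems, 1 was called higher and 8 lower at 6 h, beside 16.9% and 13.2% of all genes. At 3 h, 1 was called higher and 1 lower, beside 9.04% and 8.71% of all genes. By 24 h there were 1 higher and 9 lower, beside 18.0% and 17.1% of all genes. With the length and GC correction the counts were 1 and 5 at 6 h (16.4% and 13.4% of all genes) and 3 and 7 at 24 h (16.2% and 18.2%). With the close replicates averaged they were 1 and 5 at 6 h, and 0 and 6 at 24 h. The median log2 fold change of the list was -0.18 at both times, and -0.05 and -0.03 with the correction. At 6 h GLRX, a glutaredoxin, changed by -0.63 (adjusted p = 9.15e-05) and GPX4, which reduces lipid peroxides, by -0.35 (adjusted p = 0.00533, -0.13 with the correction), while SLC3A2, a subunit of the cystine importer, rose by 0.30 (adjusted p = 0.000607). At 24 h SLC3A2 (-0.44, adjusted p = 1.56e-05, -0.33 with the correction) and TXN, thioredoxin itself (-0.44, adjusted p = 0.000857, -0.30 with the correction), fell. TXN was called higher at 3 h (0.30, adjusted p = 0.0198, 0.18 with the correction), a call lost without 0 h replicate 2 or 3 or 3 h replicate 2, and PRDX3 lower (-0.24, adjusted p = 0.0138), lost without 0 h replicate 3 or 3 h replicate 2.

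The shares of all genes called, given for the genes that control NRF2, apply to the following lists too. With the correction these shares were 16.4% higher and 13.4% lower at 6 h, and 16.2% and 18.2% at 24 h. Of 15 genes for NADPH supply and other known NRF2 targets, 0 were called higher and 5 lower at 3 h. The counts were 2 higher and 7 lower at 6 h, then 0 higher and 3 lower by 12 h, and 4 higher and 5 lower by 24 h. With the correction the balance at 24 h turned (5 higher and 3 lower), the 6 h counts being 2 and 5, and with the close replicates averaged there were 1 higher and 4 lower at 6 h, then 4 each by 24 h. IDH1, which makes NADPH in the cytosol, changed by -0.49 (adjusted p = 0.000658) at 3 h and by 0.47 (adjusted p = 0.000254) at 24 h. UGDH rose by 0.46 (adjusted p = 0.00878) at 6 h and by 0.47 (adjusted p = 0.00613) at 24 h, the former lost with the close replicates averaged and without 6 h replicate 3. The carbonyl reductase CBR1 and the biliverdin reductase BLVRB both fell by 0.45 at 6 h (adjusted p = 0.000228 and 0.00133), with CBR1 at -0.35 and BLVRB at -0.28 after the correction. The transaldolase TALDO1 (-0.36, adjusted p = 0.000305, -0.19 with the correction) and the transketolase TKT (-0.33, adjusted p = 0.000521, -0.46 with the correction) fell at 24 h. Of 9 genes of superoxide, peroxide and haem metabolism, 0 were called higher and 1 lower at 3 h. The counts were 1 higher and 4 lower at 6 h, then 0 higher and 1 lower by 12 h, and 4 higher and 3 lower by 24 h. The balance turned at 6 h with the correction (2 higher and 1 lower), which gave 3 higher and 1 lower at 24 h, and with the close replicates averaged there were 1 higher and 2 lower at 6 h, then 1 each by 24 h. Catalase, CAT, changed by -0.49 (adjusted p = 0.00139) at 3 h. Its mean was 49.98 CPM at 0 h, 35.6 CPM at 3 h and 61.07 CPM at 24 h. SOD3, at a mean of 11.25 CPM at 0 h, changed by -0.50 (adjusted p = 0.00783) at 6 h and -0.52 (adjusted p = 0.00489) at 24 h. The SOD3 values were -0.26 and -0.18 with the correction, which lost the 24 h call. Its 6 h call was lost without 0 h replicate 2. ALAS1, the first enzyme of haem synthesis, rose by 0.34 (adjusted p = 0.00051) at 24 h.

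**Figure D4:**
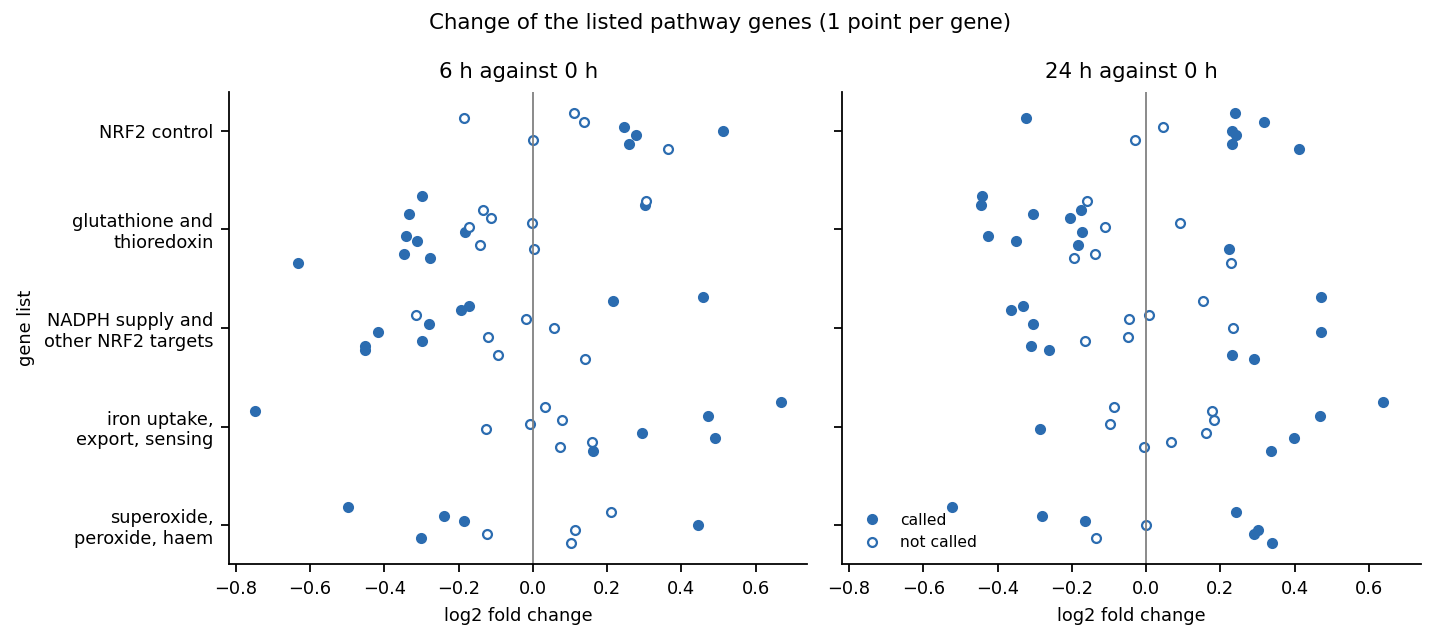
Log2 fold change at 6 h and at 24 h against 0 h (horizontal axes) for the 61 genes of 5 pathway lists (vertical axis, 1 point per gene), filled where the gene is called at an adjusted p below 0.05. Most filled points of the glutathione and thioredoxin list lie below 0, and those of the NRF2 control list mostly above 0.

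Across the 17 libraries, the levels of FTL and FTH1 went together (Pearson r of log2 CPM 0.93), as did NFE2L2 and TXNRD1 (0.91) and GCLM and TXNRD1 (0.87), while NQO1 and TXNRD1 (-0.85) and GCLM and FTL (-0.85) went opposite ways. These values are descriptions over libraries that share times and the length dependence given above. The genes whose pattern was most like that of a member were searched among all tested genes whose log2 CPM averaged 2 or more. They were PHLDB2 (r = 0.981) and FNDC3B (0.978) for TXNRD1, PPP3CB (0.974) and GMCL1 (0.971) for GCLM, CST2 (0.969) and CST4 (0.959) for FTH1, PID1 (0.944) and TSR1 (0.933) for SRXN1, and MRPS6 (0.942) and ATP5MC3 (0.927) for NQO1. For NFE2L2 they were MIEF1 (0.936) and NRIP1 (0.933), and for HMOX1 TMEM101 (0.795) and FIBP (0.763). For FTL they were AC010618.1 (0.980), a processed pseudogene of which 0 of 447 runs of 31 bases occur in an FTL transcript, and CST1 (0.976).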

How the data were processed

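Per the labels' protocols, mRNA was sequenced from strand-preserving libraries in paired-end mode. The authors deposited expected counts, the estimated number of fragments per gene, which came from RSEM per the file name and were not scaled to depth or length. The submitters' processing notes name hg38, cutadapt 1.18 and STAR 2.7.0f. The annotation and the strand setting of the counting are not given in the sources used here, so overlapping genes on opposite strands may share counts. Gene positions, lengths and GC content are those of GENCODE 29 (GRCh38), where 58597 of 58870 entries were matched. Expected counts were rounded, filtered (filterByExpr) and scaled by TMM, and edgeR 4.0.16 (quasi-likelihood test, robust) was fitted to all 17 libraries with 1 mean per time. Adjusted p-values are Benjamini-Hochberg over 15365 genes, and a gene is called below 0.05. Intervals use the standard error from the F statistic. The procedure was tested on simulated data.

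The members and lists were chosen with earlier results of these data known. The members are given in every library, and from each list the 2 highest and 2 lowest log2 fold changes among called genes could be named, with KEAP1 named in addition after its values were seen. Alternatives were RLE scaling, library size alone, other count filters, DESeq2 1.42.0, limma-voom (limma 3.58.1), a replicate block, offsets for transcript length and GC content, mitochondrial genes removed, the 2 times alone, ferritin pseudogenes added, close replicates averaged and each library left out. The genes most like GCLC in pattern are not reported here.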

Additional observations from a re-analysis of the deposited data

How the results depend on the processing

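Of the counts of members called, these changed by more than 1.5 times. With the length and GC offsets, alone or with the replicate block, 1 member was called lower from 1 h to 3 h, 0 lower from 3 h to 6 h and 6 lower from 6 h to 12 h. With the offsets alone, 5.28%, 20.5% and 15.9% of all genes were called lower in these steps. With the close replicates averaged, 1 was called lower at 6 h, 3 were called higher from 3 h to 6 h and 0 higher from 12 h to 24 h. Leaving out a library gave 1 to 2 lower at 3 h, 1 to 3 lower at 6 h, 1 to 2 lower at 12 h, 3 to 5 higher from 3 h to 6 h, 0 to 2 higher from 12 h to 24 h and 0 to 1 lower from 12 h to 24 h. The replicate block without the offsets changed no count by that much. The share of all genes called is not reported here for the averaged replicates or for a library left out. Replicate numbers showed no sign of pairing. Deviations of same-numbered libraries correlated between -0.199 and 0.211, with a median of 0.0108. Those of other-numbered libraries correlated between -0.163 and 0.199, with a median of -0.00865. These values cannot show whether libraries with the same number came from 1 culture.

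Values that changed sign all belonged to genes that were not called. With the length and GC offsets, and with the replicate block added to them, FTL at 3 h was -0.030 and -0.028, HMOX1 0.0843 and 0.0844 at 6 h and 0.0956 and 0.0951 at 24 h, GCLC at 24 h -0.062 and -0.061, and at 12 h GCLM was -0.026 and -0.026, TXNRD1 -0.045 and -0.045, and SRXN1 0.0047 and 0.0056. With library size alone, SRXN1 at 12 h was 0.0139 and HMOX1 at 24 h 0.0185. Leaving out a library, NFE2L2 at 3 h ranged from -0.011 to 0.165, TXNRD1 from -0.104 to 0.0353 at 3 h and from -0.0065 to 0.0721 at 12 h, HMOX1 from -0.10 to 0.0444 at 3 h, from -0.133 to 0.0206 at 6 h and from -0.023 to 0.0714 at 12 h, GCLM from -0.024 to 0.0974 at 12 h, SRXN1 from -0.068 to 0.0072 at 12 h and from -0.027 to 0.0419 at 24 h, and GCLC from -0.032 to 0.0755 at 24 h. The cause of these changes was not tested. The members with the fewest counts were HMOX1, with 195 to 321 per library, and GCLC, with 244 to 545.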
